A study of Mus musculus with 4 samples.

Results

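The miRNAs mmu-miR-155-5p, mmu-miR-155-3p and mmu-miR-147-3p, written from here on without the species prefix, were followed in resting bone marrow-derived macrophages (BMDMs), as 3 of the 1979 mature miRNAs of the table. They were chosen by name, as miRNAs that rise in macrophages exposed to bacterial lipopolysaccharide (LPS), and all 3 were found, each on a single line with whole counts in every library. The other arm of the miR-147 hairpin, miR-147-5p, was added as a partner, since its levels bear on those of miR-147-3p. BMDMs are macrophages grown from bone marrow in the growth factor M-CSF. The marrow came from mice of mixed 129/B6 background aged 6 to 7 months, 3 of each genotype, and the cells grew in 10 ng/ml M-CSF for 8 to 9 days and then spent 16 h free of LPS. Of the libraries, 2 were of wild-type BMDMs (WT A and WT B, whose values are always given in this order), 1 was of BMDMs lacking the miR-146a precursor (KO), and 1 was of BMDMs homozygous for the 3′F allele (3′F), in which a stretch of the 3′ part of miR-146a is exchanged with the stretch facing it on the other strand of its hairpin, and the seed is kept. No library of LPS-treated cells was analysed here, so the values describe the levels before stimulation. The labels do not say whether a library holds cells of a single mouse or of several. The mutant alleles were made in separate embryonic stem cell lines, and each mutant has 1 library.

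miRNAs are cut from hairpin precursors, and either strand of the resulting duplex can be loaded into an Argonaute protein and kept. The seed, bases 2 to 8 from the 5′ end, is the part that chiefly selects target mRNAs. miR-155 is made from a non-coding transcript that Toll-like receptors switch on through NF-kB and AP-1, and it represses negative regulators of cytokine signalling such as SOCS1 and SHIP1. miR-147 is also induced by Toll-like receptor ligands in mouse macrophages and has been described as a brake on cytokine production. miR-146a, the miRNA altered in these mice, is a further NF-kB target, and it represses the signalling proteins IRAK1 and TRAF6 upstream of NF-kB.

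The mature sequences below, from RefSeq on GRCm38.p6, show the arms counted, with the seed in capitals. RefSeq entries matched 2 of the 3 members, and miR-147-3p is named only.
miR-155-5p: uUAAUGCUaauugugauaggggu
miR-155-3p: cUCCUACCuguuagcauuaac
miR-147-5p: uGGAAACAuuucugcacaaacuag
No other mature miRNA among the 1679 of that table has the seed of any of these 3 arms. miR-8107 has bases 2 to 7 of miR-147-5p, and it had between 6 and 9 counts in each library. The arms of the miR-155 hairpin, written in capitals, lie on either side of its loop in the precursor:
Mir155: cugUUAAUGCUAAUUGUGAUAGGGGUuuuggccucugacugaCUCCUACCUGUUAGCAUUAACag

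On GRCm38 (GENCODE vM21), Mir155 (ENSMUSG00000065397.1) spans 65 nt on chromosome 16, from 84714140 to 84714204 (plus strand), within exon 2, the last of 2 exons, of the lincRNA gene Mir155hg (84703167 to 84715245), whose transcript is the miR-155 precursor. Mir147 (ENSMUSG00000076309.2) covers 79 nt on chromosome 2, from 122640803 to 122640881 (plus strand). Its host is the last exon of the protein-coding gene AA467197 (Nmes1, 122636986 to 122641191), where it falls in the 3′ untranslated region of transcript AA467197-201, and starts 37 bp past the last coding base. No other miRNA gene is annotated within 10 kb of either hairpin. The authors' build for the small RNA libraries is not given in the sources used here, so these positions describe the genes and not the alignment.

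The counts summed to between 11410940 and 19087640 per library, at which 3 counts correspond to between 0.157 and 0.263 RPM, reads scaled to a library total of 1000000 counts. The targeted miRNA, miR-146a-5p, had levels of 6253 and 5485 RPM in the WT libraries, of 13.4 RPM in KO and of 6.64 RPM in 3′F. The KO and 3′F values come from 256.5 and 107.5 estimated counts, which are not whole, as when reads are shared between lines. By qRT-PCR the paper detected no miR-146a in KO mice. The altered miRNA of the 3′F allele has a line of its own, with 171 counts or 10.56 RPM in 3′F and 0 counts in each other library. Adapter ligation depends on the sequence of an RNA, so these reads do not give its amount relative to wild-type miR-146a. By qRT-PCR, the paper reports similar amounts of the altered and wild-type forms in most of the samples it examined. All 5 miRNAs listed for macrophages and other myeloid cells were present, among them miR-223-3p, at between 1466 and 1636 RPM, and miR-511-3p, at between 65.6 and 80.8 RPM. miR-142a-3p differed more, at 1721 and 1121 RPM in the WT libraries. The 5 summed to 3641 and 2824 RPM in the WT libraries, 3054 RPM in KO and 2849 RPM in 3′F. A total of 439 miRNAs averaged 1 RPM or more and were compared between genotypes, all 3 members among them. With a single library, KO and 3′F have no replicate check of their own, and the edgeR test used here takes its spread between samples from WT A and WT B alone, on 1 residual degree of freedom. edgeR shares that spread between the miRNAs tested, so the SE of a miRNA is not that of its own WT pair. In 3′F against WT, the SE was 0.26 for miR-155-5p and 0.25 for miR-147-5p. Their log2 RPM differed between the WT libraries by 0.02 and 0.45. Counting intervals are at 95% and cover counting error only. Levels and ratios are in the deposited RPM unless said otherwise. The TMM factors of the edgeR test and the size factors of DESeq2 set WT A and 3′F higher and WT B lower than RPM does. TMM factors also set KO lower, for miR-155-5p at 53.4 against 55.2 in RPM, while DESeq2's left it near that, at 55.1. These factors are named where they change an order, an interval or a 2-fold call.

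In resting wild-type cells, miR-155-5p was an miRNA of middle rank. The WT libraries held 1217 and 802 counts of it, that is 71.28 and 70.28 RPM. They were nearly equal, with a mean of 70.8 ± 0.705 RPM (SD, n = 2) and a ratio of WT B to WT A of 0.986 (interval 0.901 to 1.08). With TMM factors that ratio was 0.905 (interval 0.826 to 0.990), and with DESeq2's factors 0.921 (interval 0.841 to 1.01). Its rank among the 1979 miRNAs was 141 and 140 in the WT libraries, 150 in KO and 138 in 3′F. miR-147-3p was lower, with 153 and 136 counts in the WT libraries, that is 8.96 and 11.92 RPM, and ranks of 258 and 242. Its mean was 10.4 ± 2.09 RPM (SD, n = 2), and WT B exceeded WT A 1.33-fold (interval 1.05 to 1.69). miR-147-5p differed the same way between the WT libraries, at 11.71 and 15.95 RPM, a ratio of 1.36 (interval 1.11 to 1.67). In RPM both arms of miR-147 therefore differed between the WT libraries by more than counting error, as did 44.2% of the 439 miRNAs compared. With TMM factors the ratio was 1.22 (interval 0.961 to 1.55) for miR-147-3p, which includes 1, and 1.25 (interval 1.02 to 1.53) for miR-147-5p, and DESeq2's factors gave the same split. miR-155-3p, the arm of miR-155 that is mostly discarded, was close to the minimum level, with 31 and 21 counts in the WT libraries, that is 1.82 and 1.84 RPM, and ranks of 364 and 369.

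**Figure D1:**
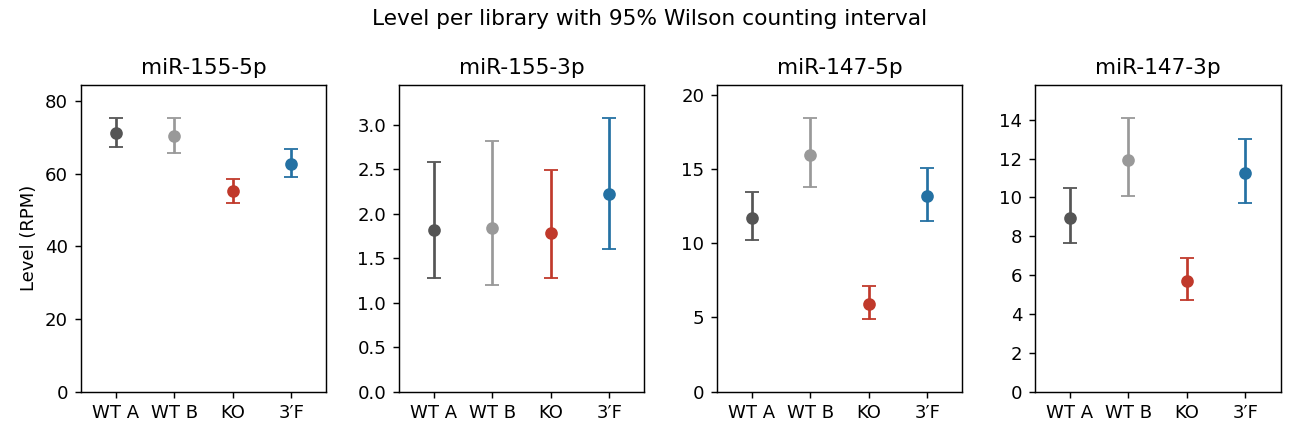
Level in RPM (vertical axes, from 0, with a scale for each miRNA) of miR-155-5p, miR-155-3p, miR-147-5p and miR-147-3p in the single libraries WT A, WT B, KO and 3′F. Points are library values and bars 95% Wilson counting intervals. Both arms of miR-147 are lowest in KO, at 5.92 and 5.71 RPM, while the intervals of miR-155-3p overlap in all 4 libraries.

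In KO, both arms of miR-147 had their lowest level of the 4 libraries, and miR-155-5p was modestly lower than in WT. miR-147-3p had 109 counts in KO, or 5.71 RPM (interval 4.73 to 6.89), at rank 276. This was 0.637 times the level in WT A (interval 0.494 to 0.820) and 0.479 times that in WT B (interval 0.369 to 0.621). The KO level did not overlap the WT range. It lay 0.65 below the lower WT library on the log2 scale, against 0.41 between the WT libraries. Of the 439 miRNAs compared, 24.8% lay below both WT libraries by more than the WT libraries differed. miR-147-5p had 113 counts in KO, or 5.92 RPM, which was 0.505 times WT A (interval 0.398 to 0.640) and 0.371 times WT B (interval 0.291 to 0.472). The arms together summed to 353 and 318 counts in the WT libraries, that is 20.7 and 27.9 RPM, but to 222 counts or 11.6 RPM in KO. In RPM all 3 members and miR-147-5p were below both WT libraries in KO, as were 40.5% of the 439 miRNAs, although miR-155-3p lay between them with DESeq2's factors. Against each WT library the KO intervals of both arms of miR-147 stayed under 1 with TMM and with DESeq2's factors.

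By edgeR's quasi-likelihood test with Benjamini-Hochberg adjustment, the log2 fold change of miR-147-3p in KO against WT was -0.90 (SE 0.28), with an adjusted p of 0.0161. That of miR-147-5p was -1.25 (SE 0.27), with an edgeR adjusted p of 0.000181. In this comparison 10.5% of the 439 miRNAs passed the test and 6.38% passed as lower, and of the 3 members miR-147-3p passed. The call depends on how the test is set up. The adjusted p of miR-147-3p was 0.277 in edgeR without scaling factors, 0.455 by DESeq2 and 0.111 in edgeR with no minimum level, and that of miR-147-5p was 0.199, 0.105 and 0.00356 in the same order. Among miRNAs within 2-fold of its mean level, 6 of 81 had a lower KO to WT ratio than miR-147-3p, and 3 of 78 had a lower ratio than miR-147-5p.

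miR-155-5p had 1054 counts in KO, or 55.2 RPM (interval 52.0 to 58.7). Its ratio was 0.775 to WT A (interval 0.713 to 0.842) and 0.786 to WT B (interval 0.716 to 0.862). It thus lay below both WT libraries by more than counting error, as did 19.1% of the 439 miRNAs, and by 0.35 on the log2 scale. With TMM factors its KO level was 0.720 times WT A (interval 0.663 to 0.783) and 0.796 times WT B (interval 0.726 to 0.874). The edgeR log2 fold change was -0.40 (SE 0.26), with an adjusted p of 0.382, and between 0.361 and 0.795 over the alternatives, so the difference did not pass the test. On the ratio to the WT mean, 23.7% of the 439 miRNAs were lower than miR-155-5p. miR-155-3p had 34 counts in KO, or 1.78 RPM, 0.981 times WT A (interval 0.585 to 1.65) and 0.968 times WT B (interval 0.546 to 1.75). A change within these intervals was not detectable at this depth. No member differed 2-fold or more from each WT library in KO, where 6.15% of the 439 miRNAs did. In RPM the partner arm miR-147-5p came close, at 1.98-fold below WT A and 2.69-fold below WT B. With TMM factors it was 0.470 times WT A and 0.376 times WT B, and with DESeq2's 0.495 and 0.389 times. On both of these scales it thus lay more than 2-fold below each WT library.

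**Figure D2:**
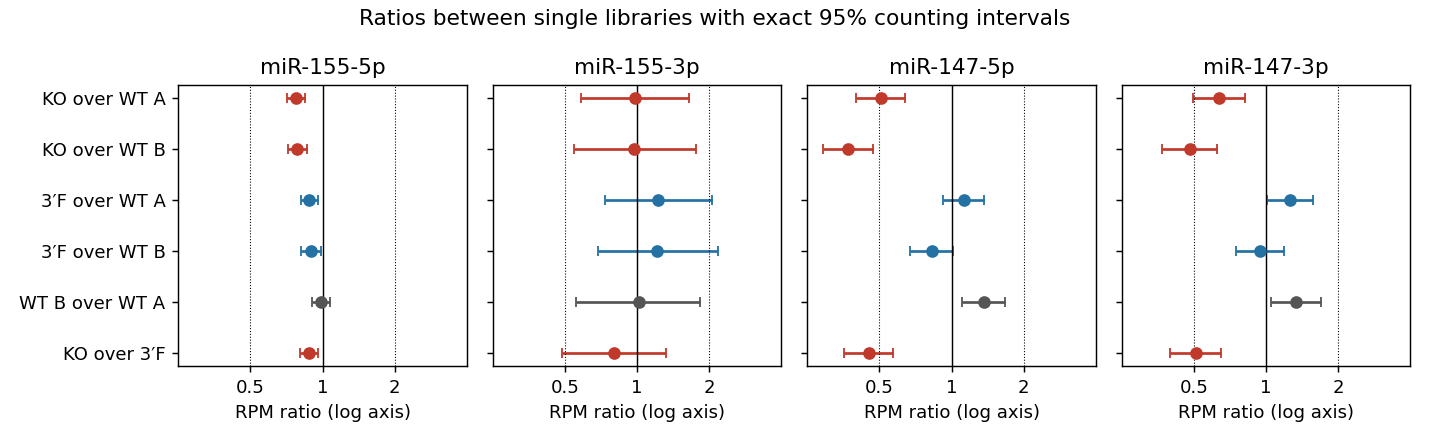
Ratio of RPM between single libraries (horizontal log axis) for the same 4 miRNAs. Points are ratios, bars exact 95% counting intervals, the solid line marks equal levels and the dotted lines mark 2-fold. For miR-147-5p and miR-147-3p the KO ratios lie left of 1, from 0.371 to 0.637, whereas the 3′F ratios in RPM lie on both sides of 1, which for miR-147-3p does not hold with TMM or DESeq2's factors.

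In 3′F, both arms of miR-147 were near the levels of the WT libraries. miR-147-3p had 182 counts, or 11.24 RPM, between WT A and WT B, and miR-147-5p had 213 counts, or 13.15 RPM, also between them. With TMM factors miR-147-3p was instead above both, at 1.26 times WT A (interval 1.01 to 1.57) and 1.03 times WT B (interval 0.821 to 1.30), as it was with DESeq2's factors, while miR-147-5p stayed between them. The edgeR log2 fold change against WT was 0.19 (SE 0.26) for miR-147-3p and 0.01 (SE 0.25) for miR-147-5p, with adjusted p-values of 0.969 and 0.994. The hairpin sum, 24.4 RPM, likewise lay between the WT sums of 20.7 and 27.9 RPM. miR-155-5p had 1016 counts, or 62.7 RPM (interval 59.0 to 66.7), and was 0.880 times WT A (interval 0.809 to 0.957) and 0.893 times WT B (interval 0.813 to 0.980). These intervals leave out 1 in the downward direction, as they did for 15.3% of the 439 miRNAs, and 43.3% of them lay below both WT libraries. With TMM factors the ratio to WT B was 0.976 (interval 0.888 to 1.07) and with DESeq2's 0.968 (interval 0.882 to 1.06), so that both include 1. The edgeR log2 fold change of -0.11 (SE 0.26) did not pass, with an adjusted p of 0.969. miR-155-3p was at its highest here, with 36 counts or 2.22 RPM, and its interval, 1.61 to 3.08, overlapped those of the other libraries. Its level was above both WT libraries, as was that of 26.2% of the 439 miRNAs. None of the 3 members passed edgeR's test in 3′F, either adjusted or at an unadjusted p under 0.05, or DESeq2's. Of the 439 miRNAs, 1.59% passed edgeR's adjusted and 7.97% its unadjusted threshold. Nor did any member differ 2-fold or more from each WT library, as 1.14% of the 439 miRNAs did. The targeted miR-146a-5p and the altered miRNA of the 3′F allele are among the 439, and both are counted in these shares.

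Set directly against each other, KO was below 3′F for both arms of miR-147. The KO level of miR-147-3p was 0.508 times that in 3′F (interval 0.397 to 0.648), and for miR-147-5p the ratio was 0.450 (interval 0.355 to 0.568). In edgeR the log2 difference was -1.08 (SE 0.31) for miR-147-3p, with an adjusted p of 0.0123, and -1.26 (SE 0.30) for miR-147-5p, with an adjusted p of 0.00137. Of the 439 miRNAs, 5.69% passed in this comparison, and of the 3 members miR-147-3p did. Over the alternatives the adjusted p ran from 0.0123 to 0.725 for miR-147-3p and from 0.000189 to 0.475 for miR-147-5p, and both lost the call without scaling factors and by DESeq2. miR-147-3p lost it with no minimum level as well. The KO library stands in both this comparison and that against WT, so these are not separate observations of KO. miR-155-5p was 0.880 times as high in KO as in 3′F (interval 0.807 to 0.960), with an edgeR adjusted p of 0.785, and miR-155-3p 0.801 times (interval 0.486 to 1.32), with 0.812.

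The order of the libraries in RPM differed between the hairpins. For miR-155-5p it was WT A, WT B, 3′F and KO, from highest to lowest, and of these neighbors only WT A and WT B did not differ beyond counting error. The order was the same with TMM and with DESeq2's factors, but there WT B and 3′F did not differ beyond counting error, and with TMM factors WT A and WT B did. For miR-147-3p it was WT B, 3′F, WT A and KO in RPM, and 3′F, WT B, WT A and KO with TMM or DESeq2's factors. On each of these scales WT B and 3′F did not differ beyond counting error. In RPM 3′F exceeded WT A by a ratio of 1.25 whose interval, 1.01 to 1.57, barely left out 1. For miR-147-5p the order was WT B, 3′F, WT A and KO on all 3 scales, and 3′F did not differ beyond counting error from either of its WT neighbors. For miR-155-3p no libraries differed beyond counting error on any of these scales.

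**Figure D3:**
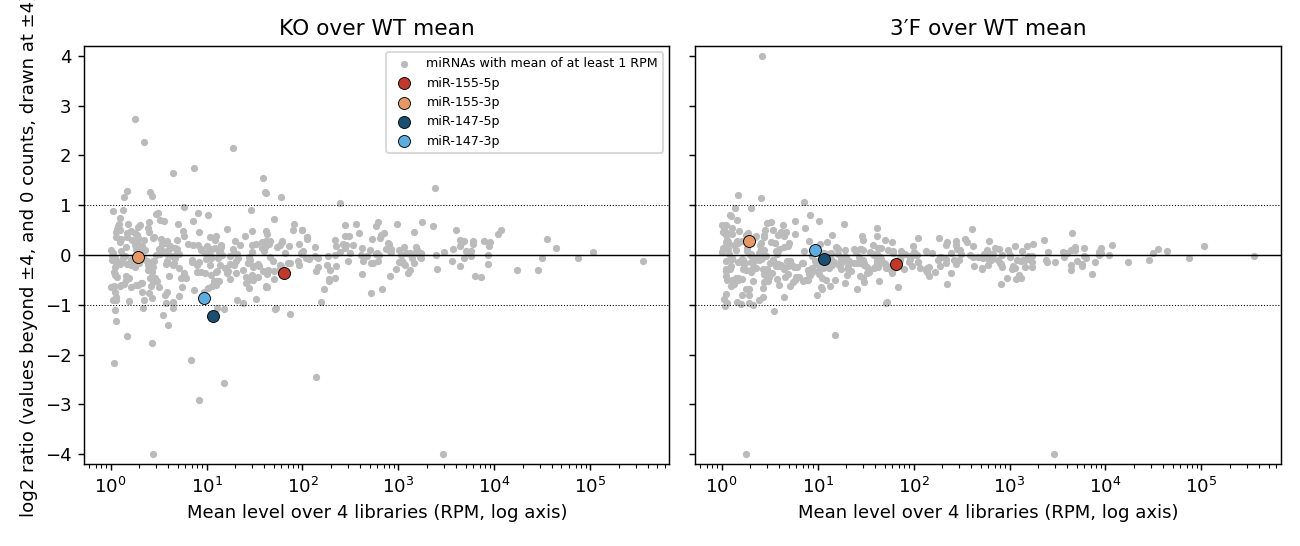
log2 ratio to the WT mean (vertical axis) in KO (left) and 3′F (right) against the mean level over the 4 libraries (RPM, horizontal log axis) for the 439 miRNAs compared, in gray, with both arms of miR-155 and miR-147 in color. Dotted lines mark 2-fold, and values beyond 4 in size are drawn at the edge. In KO the arms of miR-147 sit at -0.87 and -1.22, whereas in 3′F all 4 colored points lie between -0.17 and 0.28.

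The hairpins also differed in how their arms were shared. From miR-155, the 5p arm made up 97.5% (interval 96.5 to 98.2) and 97.4% (96.1 to 98.3) of the hairpin's counts in the WT libraries. The share was 96.9% in KO (95.7 to 97.8) and 96.6% in 3′F (95.3 to 97.5). Over all libraries there were 4089 counts of 5p and 122 of 3p, a ratio of 33.5. From miR-147, the arms were nearly even, with 708 counts of 5p and 580 of 3p, a ratio of 1.22. Its 5p share was 56.7% (interval 51.4 to 61.7) and 57.2% (51.7 to 62.6) in the WT libraries, against 50.9% in KO (44.4 to 57.4) and 53.9% in 3′F (49.0 to 58.8). These intervals overlapped between all libraries, so a shift in arm use with genotype was not detectable at this depth. Among 269 hairpins with both arms listed and at least 100 counts in all, the minor arm held a median of 3.49% of the counts. In miR-155 it held 2.90%, and 51.3% of the hairpins were more even. In miR-147 it held 45.0%, and 7 of the 269 hairpins were more even. The ligation of adapters depends on the sequence of an RNA, so the ratio of reads between arms need not be their ratio in cells.

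**Figure D4:**
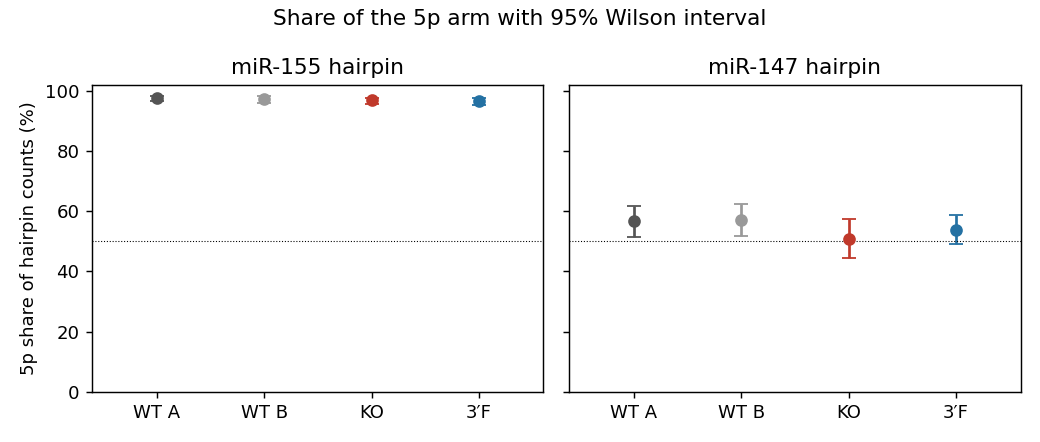
Share of the 5p arm in the counts of each hairpin (percent, vertical axis) in the 4 libraries, with 95% Wilson intervals, and a dotted line at equal shares. The 5p arm of miR-155 holds at least 96.6% in every library, and that of miR-147 between 50.9% and 57.2%.

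The miRNAs whose levels moved most like those of the members across the 4 libraries were found by the root mean square difference of log2 RPM, each centered on its WT mean. With 4 libraries this is a description. For miR-155-5p, among 250 others that averaged 10 RPM or more, they were miR-301a-5p (0.02), miR-425-3p (0.03) and miR-19b-3p (0.04). miR-301a-5p, for example, was at 54.8 and 55.0 RPM in the WT libraries, 44.1 RPM in KO and 48.7 RPM in 3′F. For miR-147-3p, among 436 others that averaged 1 RPM or more and were found in every library, they were miR-7009-5p (0.05), miR-1964-3p (0.09) and miR-212-5p (0.10). miR-212-5p, a product of the miR-212 hairpin, was at 25.0, 28.1, 13.7 and 29.0 RPM in the same order, and miR-1964-3p was at 163, 191, 91.7 and 182 RPM. The closest, miR-7009-5p, was near the minimum level, at 1.05, 1.40, 0.681 and 1.42 RPM. miR-147-5p, from the same hairpin as miR-147-3p, came at position 19 of the 436, with a difference of 0.20.

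Other miRNAs known to rise on LPS or NF-kB signalling were listed for comparison, of which 5 of 6 passed the minimum level. miR-187-3p did not, with at most 14 counts. In KO, miR-146b-5p passed as higher in edgeR and none passed as lower, that is 1 of 5 passed, beside 10.5% of the 439 miRNAs. The list holds the 3p arm of miR-212. That arm had an edgeR log2 fold change of -0.28 in KO. The more abundant arm, miR-212-5p, is outside the list and was lower in KO, with an edgeR log2 fold change of -0.996 (SE 0.26). It was named above for a pattern like that of miR-147-3p in these same libraries, so its lower KO level is part of how it was found. The median log2 ratio of the 5 was -0.25, beside -0.02 for all 439 miRNAs. miR-132-3p, which responds to CREB as well as to LPS, had 29.7 and 30.1 RPM in the WT libraries, 18.8 RPM in KO and 32.4 RPM in 3′F, with an edgeR adjusted p of 0.0589 in KO. The KO level was below both WT libraries and the 3′F level above both. miR-9-5p, miR-21a-5p and miR-212-3p had log2 ratios between -0.41 and -0.11 in KO and did not pass the test. In 3′F none of the 5 passed, and their median was -0.02, beside -0.09 for all.

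Markers of other cells that bone marrow cultures can hold were counted beside these results. The summed level of the 3 erythroid miRNAs was 93.2 and 94.1 RPM in the WT libraries, 36.5 RPM in KO and 43.3 RPM in 3′F, so it was lower in both mutants, whereas miR-147-3p and miR-147-5p were below both WT libraries in KO and, in RPM, between them in 3′F. Of these 3 miRNAs, miR-451a and miR-486a-5p passed edgeR as lower in each mutant, and miR-144-3p, with at most 7 counts, was under the minimum level. The 4 stromal miRNAs summed to 8.28 and 9.23 RPM in WT, 5.83 in KO and 5.56 in 3′F. Of these, miR-143-3p passed edgeR as lower in KO. miR-199a-3p stayed within the WT range, at 3.18 and 3.71 RPM in WT, 3.63 in KO and 3.21 in 3′F. The stromal miRNAs miR-145a-5p and miR-214-3p were under the minimum level, and miR-145a-5p had 3 and 2 counts in the WT libraries and 0 in KO and 3′F. The 2 lymphocyte miRNAs summed to 248 and 277 RPM in WT, 305 in KO and 245 in 3′F, nearly all of it miR-181a-5p. The other, miR-150-5p, was below both WT libraries in each mutant, at 2.93 and 2.80 RPM in WT, 2.51 in KO and 1.54 in 3′F. The 2 endothelial miRNAs summed to between 10.2 and 14.0 RPM in all libraries. The part of these other cells in the levels of miR-155 and miR-147 was not tested. In libraries of whole cultures, fewer cells of a type and less RNA per cell cannot be told apart, nor, with 1 culture per mutant, can the genotype and the culture.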

How the data were processed

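Small RNA of 18 to 35 bases was sequenced from 4 libraries of resting BMDMs. The authors trimmed adapters with cutadapt 1.8.3, per the submitters' processing notes. The aligner, counter and miRNA release are not given in the sources used here. The authors deposited estimated counts for 2129 lines of a miRNA and a precursor, of which between 10.8% and 12.3% in a library were not whole, as when reads are shared between lines. They also deposited RPM values, which are counts scaled to the total over these lines in each library. One line per miRNA, that with the highest summed count, was kept.

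Ratios are of RPM, with no pseudocount. Intervals of shares are Wilson intervals, and those of ratios are Clopper-Pearson intervals of a count within the pair's sum. Reads are not independent molecules. The main test was edgeR's quasi-likelihood test on rounded counts of all 4 libraries, with TMM factors, a minimum mean of 1 RPM and an adjusted p under 0.05. The lone KO and 3′F libraries are assumed to vary like WT. The p-values rest on the spread between WT A and WT B, which edgeR shares between miRNAs, and cover these samples only. SEs were derived from the fold change and the F statistic. A second call asked for at least 2-fold from both WT libraries.

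The members and lists were chosen with earlier results of these data known, and the lists were drawn from general knowledge. The miRNAs named are the members, miR-147-5p, the lists, miRNAs sharing seed bases, the 3 of most similar pattern for miR-155-5p and for miR-147-3p, and the targeted miR-146a-5p. The alternatives were other scalings, pseudocounts of 0.1 and 1 RPM, other minimum levels, every deposited line, thresholds of 1.5-fold and 3-fold, DESeq2, and each WT library left out. The functions were tested on simulated data, where the miRNAs changed for edgeR and the 2-fold call moved more than any member did here. Changes as small as those of the members were not covered for these calls. The versions were edgeR 4.0.16 and DESeq2 1.42.0 (under R 4.3.3), and pandas 2.3.3 and scipy 1.17.1 (under Python 3.11.15).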

Additional observations from a re-analysis of the deposited data

How the results depend on the processing

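No paired analysis was possible because each mutant has a single library, whose column shares only the culture identifier A with WT, so that no second pair exists. Left out in turn, the WT libraries moved the log2 ratio of miR-147-5p in 3′F to WT, -0.07, to between -0.28 and 0.17, and that of miR-147-3p in 3′F, 0.11, to between -0.08 and 0.33, so neither has a stable sign. In KO the ratios of miR-147-3p (-1.06 to -0.65), miR-147-5p (-1.43 to -0.98) and miR-155-5p (-0.40 to -0.34) kept their sign under the other scalings, the pseudocounts and each WT library left out. edgeR was not run with a WT library left out, since no residual degrees of freedom would remain. In KO, 27 miRNAs differed 2-fold or more from each WT library. This number was 17 with a pseudocount of 1 RPM, 10 with a minimum of 10 RPM, 214 with no minimum, 73 at 1.5-fold, 12 at 3-fold, and between 41 and 48 when WT A or WT B was left out. The 5 such miRNAs of 3′F became 3, 2, 151, 26 and 2 in the same order, and between 18 and 21. The number passing edgeR in KO against WT, 46, became 1 without scaling factors, 25 by DESeq2 and 30 with a minimum of 10 RPM. In 3′F against WT the number, 7, became 1, 2 and 3 in the same order, and 4 with RLE factors. In KO against 3′F it was 25, and became 0 without scaling factors (43 at an unadjusted p under 0.05), 13 by DESeq2 and 14 with a minimum of 10 RPM. The cause of these changes was not tested. The intervals with TMM and DESeq2's factors given for pairs of libraries were chosen after seeing the data. With 1 residual degree of freedom the spread is poorly known, and miR-155-3p rests on 21 to 36 counts in a library.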
